A study of Mus musculus with 168 samples.

Results

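Motor neurons of the lumbar spinal cord were followed in control mice over postnatal days 2, 5 and 10. The samples were chosen by their labels, as every control library of the lumbar population, and each came from a different mouse. There were 13 such mice among the 160 combinations of mouse and population of the study (168 libraries): 4 at day 2, 5 at day 5 and 4 at day 10. No animal was sampled at more than 1 age, so each age comparison was between separate mice. The question was how gene activity in these neurons changes over the postnatal days in which the study followed a motor neuron disease in littermates.

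The study used the delta7 mouse, a model of spinal muscular atrophy (SMA), a disease in which too little survival motor neuron (SMN) protein leads to loss of motor neurons. The controls described here were Smn+/+/SMN2+/+/SMN∆7+/+ littermates: they kept both copies of the mouse Smn gene and carried the same human SMN2 and SMN∆7 transgenes as the affected Smn-/-/SMN2+/+/SMN∆7+/+ mice. They were therefore not wild-type animals. Cells were cut by laser from quickly stained frozen sections, about 150 cells were pooled in each tube, and the polyA RNA was turned into libraries with Smart-seq2, which copies full-length transcripts, followed by Tn5 tagmentation. Per the labels, the 5 day 5 libraries also contain reads from an earlier deposit that were pooled at mapping, so the middle age and that pooling cannot be told apart. Levels are RPKM, reads scaled to gene length and to library depth. Changes with age are differences in log2(RPKM + 1), given with their standard error (SE).

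Spinal motor neurons are born before birth and have already reached their muscles when a mouse is born. In the following weeks they stop growing long axons, thicken the ones they have, take on the firing properties of fast, slow and fusimotor units, lose surplus nerve endings at the muscle and receive mature spinal inputs. Familiar steps of this period in spinal neurons are a change from embryonic to adult glycine receptors, the build-up of heavy neurofilaments, the wrapping of axons in myelin and the forming of a lattice of extracellular matrix around the cell body.

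Defining markers of motor neurons were present. Transcripts of Chat, which makes acetylcholine, were present in all 13 mice at 15 to 44.1 RPKM, and those of Slc5a7, the choline transporter, at 61.2 to 155.5. Prph, a filament protein of motor and sensory neurons, lay between 915.2 and 1633 RPKM. Isl1 and Mnx1, transcription factors that specify motor neurons, were at 4.60 to 101.5 and 4.23 to 14.8. Slc18a3 was not analysed here.

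Depth, as recovered from the steps of the table's low values, was 2850000 to 11090000 reads per library, and 15700 to 17771 genes were above 0. Some libraries stood apart. Mice 240 and 244 of day 2 held transcripts of hypothalamic peptides that lumbar motor neurons should lack: Avp was at 126.5 and 115.3 RPKM, Oxt at 119.0 and 125.3, Pmch at 110.4 and 137.9 and Hcrt at 99.99 and 138.7, while in the other 2 day 2 mice Avp, Oxt and Pmch were at 0 and Hcrt at 1.16 and 1.31. The summed level of the 7 hypothalamic genes was 10.3 to 533.6 RPKM at day 2, 1.52 to 9.74 at day 5 and 0.542 to 6.10 at day 10. At day 10, mouse 253 had the shallowest library. Its levels of Slc32a1 and Slc17a6, transporter genes of inhibitory and excitatory interneurons, were 28.0 RPKM against 1.30 to 6.23 in the other 3 mice and 39.4 against 3.84 to 11.2. The peptide gene Sst went the other way, at 241.5 RPKM against 1739 to 2187. The summed level of the 20 interneuron genes, which is mostly that of Sst, was lowest in this mouse at 422.5 RPKM. That sum does not show whether the other interneuron transcripts were low there. The part of these transcripts in the age changes was not tested. Many of the counts within lumbar controls are given below also without mice 240 and 244. The comparisons with SMA mice and with other motor populations were not refitted without both of these mice.

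Of 14143 genes tested, 2040 (14.4%) differed between day 10 and day 2 (limma, Benjamini-Hochberg adjusted p under 0.05 over all genes tested), and such genes are called here. There were 802 higher at day 10 (5.67% of the genes tested) and 1238 lower (8.75%). Counts in the gene lists below are to be read beside these shares. The median change over all genes was -0.11 on the log2 scale. Scaling the libraries to a common distribution moved that median to 0.00361 and gave 984 higher and 971 lower genes, while centring each library on its median ratio gave 1051 higher and 911 lower. The balance between rises and falls thus depended on the scaling, while each of the 2040 genes kept its direction under both scalings. Of the 2040, 1772 were called again in the same direction under the first scaling and 1713 under the second. These refits use the same mice. Day 2 and day 10 mice did not overlap for 2743 genes (19.4%). Without mice 240 and 244, 1072 genes were called, of which 992 were among the 2040 with the same direction, and without mouse 20 there were 1450. By their Xist and Y-linked transcripts, mice 240 and 244 were the males of day 2. Leaving both out kept 2 day 2 mice, both female. The library numbers in the labels did not overlap between ages, being lowest at day 5 and highest at day 10. Age and this numbering thus cannot be told apart. Those of mice 240 and 244 lay between the other day 2 mice and the day 10 mice. For any call lost without mice 240 and 244, their hypothalamic transcripts, sex, library numbers and the smaller number of mice cannot be told apart. Since these are pooled cells, fewer cells of a type and less RNA per cell cannot be told apart for any of the changes below.

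**Figure D1:**
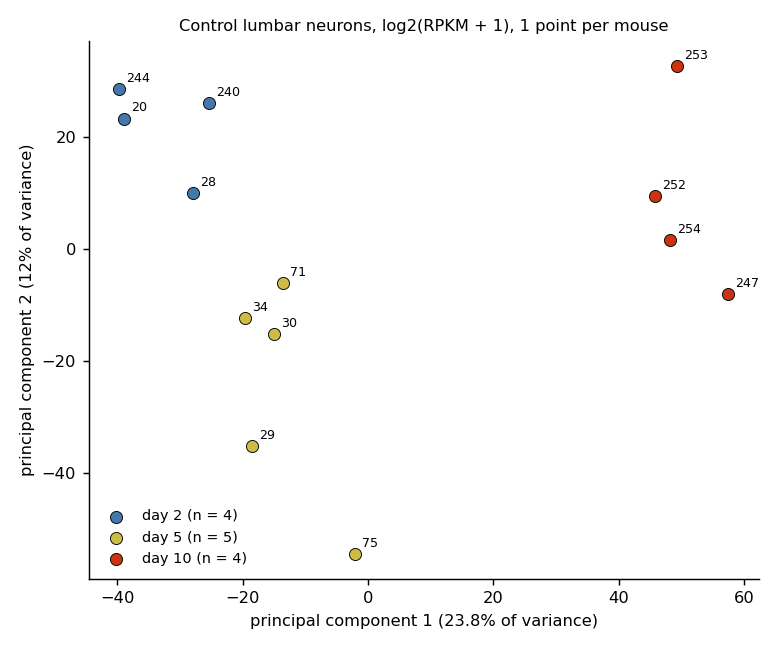
Each point is 1 control mouse, placed by the first and second principal components of log2(RPKM + 1) over the genes tested, with the mouse number beside it and the colour for the age. The day 10 mice lie at 45.8 to 57.5 on the first component, which holds 23.8% of the variance, and the day 2 mice at -39.7 to -25.4; the day 5 mice, at -19.7 to -2.10, lie between them and nearer to day 2.

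Machinery of axon growth fell. Of 29 genes tested from a list of growth cone and immature cytoskeleton proteins, 22 were lower at day 10 and 1 was higher, with a median change of -0.87 against -0.11 over all genes. Gap43, the growth-associated protein of extending axons, was 1064, 964.4, 1094 and 859.9 RPKM in the day 2 mice, 750.9 to 853.5 at day 5, and 255.9, 264.8, 218.6 and 297.8 in the day 10 mice. All day 5 mice were below all day 2 mice, and all day 10 mice were far below both. The fall was 1.94 on the log2 scale, and the gene lies at chr16:42248442-42340651 (GRCm38, minus strand). Dcx, the doublecortin of migrating and growing neurons, was 10.2 to 12.6 RPKM at day 2, 4.23 to 8.55 at day 5 and 0.956 to 2.93 at day 10. Marcksl1, an actin-binding substrate of protein kinase C, was 162.2 to 207.9, then 122.6 to 134.9, then 23.1 to 38.2. In both genes the 3 ages did not overlap.

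Microtubule proteins of the same list did not all move alike. The beta-tubulin Tubb2b fell by 2.47 ± 0.23 (limma, adjusted p = 1.05e-05), and the stathmin Stmn4 and the collapsin response mediator Crmp1 changed by -1.88 ± 0.19 and -1.64 ± 0.14. Stmn2, a stathmin that stays high in mature motor neurons, was 1310 ± 51.1 RPKM (SD, n = 4) at day 2 and 1414 ± 70.6 (SD, n = 4) at day 10 and was not called (limma, adjusted p = 0.39). The neuronal tubulin Tubb3 was the member called higher, at 803.6 ± 169 and 1101 ± 136 RPKM, and that call did not hold when 11 of the 13 mice were left out in turn. The count of falls was 21 or 22 whichever single mouse was left out and 21 without mice 240 and 244.

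Guidance receptors and adhesion molecules, which steer axons and hold them in bundles, fell as well: 22 of 50 tested were lower and 1 was higher, with a median change of -0.70. Slit2, a repellent ligand, was 99.8, 94.8, 95.2 and 96.0 RPKM at day 2, 80.6 to 153.1 at day 5 and 47.4, 34.0, 27.4 and 40.7 at day 10. The day 2 and day 5 mice overlapped, and every day 10 mouse was below them. Its receptor gene Robo2 went from 11.3 to 18.2 RPKM at day 2 to 2.70 to 4.93 at day 10, and Epha4, an ephrin receptor that guides limb motor axons, from 28.8 to 51.7 down to 7.86 to 16.2. The adhesion molecules Ncam1 and Chl1 fell by 1.59 ± 0.19 and 1.74 ± 0.27 (limma, adjusted p = 7.12e-05 and 0.000533). Sema7a was the member called higher, a call lost without mouse 20, 244, 253 or 254, or mice 240 and 244. Without mice 240 and 244 the falls numbered 13 of 50.

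The axon's filaments changed in proportion. Nefh, the heavy neurofilament that accumulates in large axons, was 454.1, 499.8, 396.9 and 524.3 RPKM at day 2, 577.3, 675.0, 576.4, 676.7 and 767.0 at day 5, and 1657, 1678, 1560 and 1800 at day 10. The 3 ages did not overlap, and the rise from day 2 to day 10 was 1.84 ± 0.11 (limma, adjusted p = 3.21e-07; chr11:4938754-4948064, minus strand). Nefm, the medium chain, rose by 0.72 ± 0.08 and Nefl, the light chain, by 0.49 ± 0.08. The ratio of Nefh to Nefl within a mouse was 0.109 to 0.134 at day 2, 0.106 to 0.130 at day 5 and 0.291 to 0.322 at day 10, so the heavy chain gained on the light chain after day 5. Ina, the filament protein of young neurons, was 342.3 to 403.5 RPKM at day 2 and 206.2 to 343.8 at day 10; its call was lost without mouse 20, without mouse 247, without mice 240 and 244 and under median centring. Prph was not called.

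Vim, the vimentin of immature and glial cells, fell by 4.07 ± 0.51 (limma, adjusted p = 9.98e-05). Its day 2 values were uneven, at 145.0, 53.3, 168.4 and 26.5 RPKM, and the day 10 values were 4.80, 1.81, 4.31 and 4.36. Mice 20 and 244 were the high ones at day 2. The same 2 mice were high in Crabp2, which carries retinoic acid to the nucleus, with 396.6 and 362.3 RPKM against 43.5 and 36.2 in mice 240 and 28, and day 10 values were 0 to 4.26. They were also high in Isl1 (88.7 and 101.5 RPKM against 49.0 and 18.6) and low in Aldh1a2, which makes retinoic acid in limb motor neurons (97.0 and 96.5 against 318.8 and 301.6). What set these day 2 mice apart was not tested.

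Genes of motor neuron identity split. Of 21 tested, 4 were higher and 4 lower at day 10, and 3 and 2 without mice 240 and 244. Chat was 16.3, 23.5, 18.8 and 15 RPKM at day 2, 18.2 to 33.9 at day 5 and 44.1, 43.0, 42.1 and 37.9 at day 10, so every day 10 mouse was above every younger mouse. Its rise was 1.16 ± 0.20 (limma, adjusted p = 0.00136). Ache, the enzyme that breaks acetylcholine down, rose by 0.49 ± 0.13 with a call that was lost without mouse 252 or mice 240 and 244, and Slc5a7 was not called between these ages. Lhx4, a homeodomain factor of early motor neurons, rose by 1.18 ± 0.22. The remaining called rise was of Isl2.

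Several factors that specify motor neurons before birth fell, while Lhx4 and Isl2 of the same list rose. Mnx1 did not pass the test between day 10 and day 2. Nkx6-1, which patterns the motor neuron progenitor domain, was 12.2, 9.90, 12.9 and 5.798 RPKM at day 2, 4.0 to 7.38 at day 5 and 0.164, 1.47, 0.520 and 1.38 at day 10. No day 10 mouse reached the lowest younger mouse. Foxp1, which with Hox proteins assigns motor neurons to limb muscles (the table's row Foxp1_ann1), fell from 56.0 to 124.4 RPKM to 16.0 to 18.9, a change of -2.15 ± 0.25 (limma, adjusted p = 5.17e-05). The falls counted in the list were Nkx6-1, Aldh1a2, Isl1 and Gfra2, so this row is not among them. Aldh1a2 fell by 2.27 ± 0.39, with no overlap in spite of its uneven day 2 values. Isl1 was called lower at -2.05 ± 0.50, its groups overlapped, and the call was lost without mice 240 and 244. Mnx1 was not called (7.62 ± 1.35 and 12.9 ± 1.35 RPKM, SD, n = 4 each). It was called higher at day 10 than at day 5 in controls, and higher at day 10 than at day 2 in SMA mice.

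Most Hox genes, which hold the position of a neuron along the body axis, were not called. Of 18 tested, 4 were lower and none was higher. Hoxd10 was 92.8, 58.9, 67.0 and 57.0 RPKM at day 2, 55.5 to 60.2 at day 5 and 27.3, 37.7, 30.0 and 23.2 at day 10, a fall of 1.19 ± 0.17 without overlap. Hoxc11 fell from 1.02 to 6.32 RPKM to values at 0 in 3 mice and 0.294 in the other. It passed the filter on low values only through the 4 day 2 mice, so its call is a description and not support for a fall. Hoxa10 and Hoxa11 were also called, and their calls were lost without mouse 20, that of Hoxa10 also without mouse 28 and that of Hoxa11 also without mouse 244, mouse 253 or mice 240 and 244. The count of falls was 1 without mouse 20 and 2 without mouse 244, without mouse 28, or without mice 240 and 244. In each of these fits Hoxc11 no longer passed the filter and was not tested, which is part of the drop.

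Markers of motor unit types moved as well, with 5 of 24 higher and 3 lower. Spp1, osteopontin, which marks fast alpha motor neurons, was 20.9, 25.9, 26.4 and 38.3 RPKM at day 2, 168.9, 158.8, 101.1, 120.5 and 280.4 at day 5 and 511.3, 281.5, 238.2 and 408.5 at day 10. All day 5 and day 10 mice were above all day 2 mice, and the rise to day 10 was 3.61 ± 0.30 (limma, adjusted p = 4.59e-06). Mmp9, a metalloproteinase of fast motor neurons, was 7.72, 11.4, 1.72 and 10.3 RPKM at day 2 and 52.4, 55.3, 76.3 and 66.1 at day 10, a rise of 3.05 ± 0.44. Vipr2, a receptor for vasoactive intestinal peptide, rose by 1.73 ± 0.33. The other rises were of Stk32a and Rbfox3, and the falls were of Creb5, Nrp2 and Calcb. From day 2 to day 10 the fusimotor factor Esrrg was not called (34.1 ± 6.45 and 23.9 ± 3.65 RPKM, SD, n = 4 each, limma, adjusted p = 0.066). From day 5 to day 10, Esrrg, Chodl, Creb5 and Calcb were called lower and Vipr2, Spp1 and Sv2a higher. The count of rises was 3 of 24 without mouse 240, without mouse 244, without mouse 252, without mouse 254 or without mice 240 and 244 together, which also left 1 fall.

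**Figure D2:**
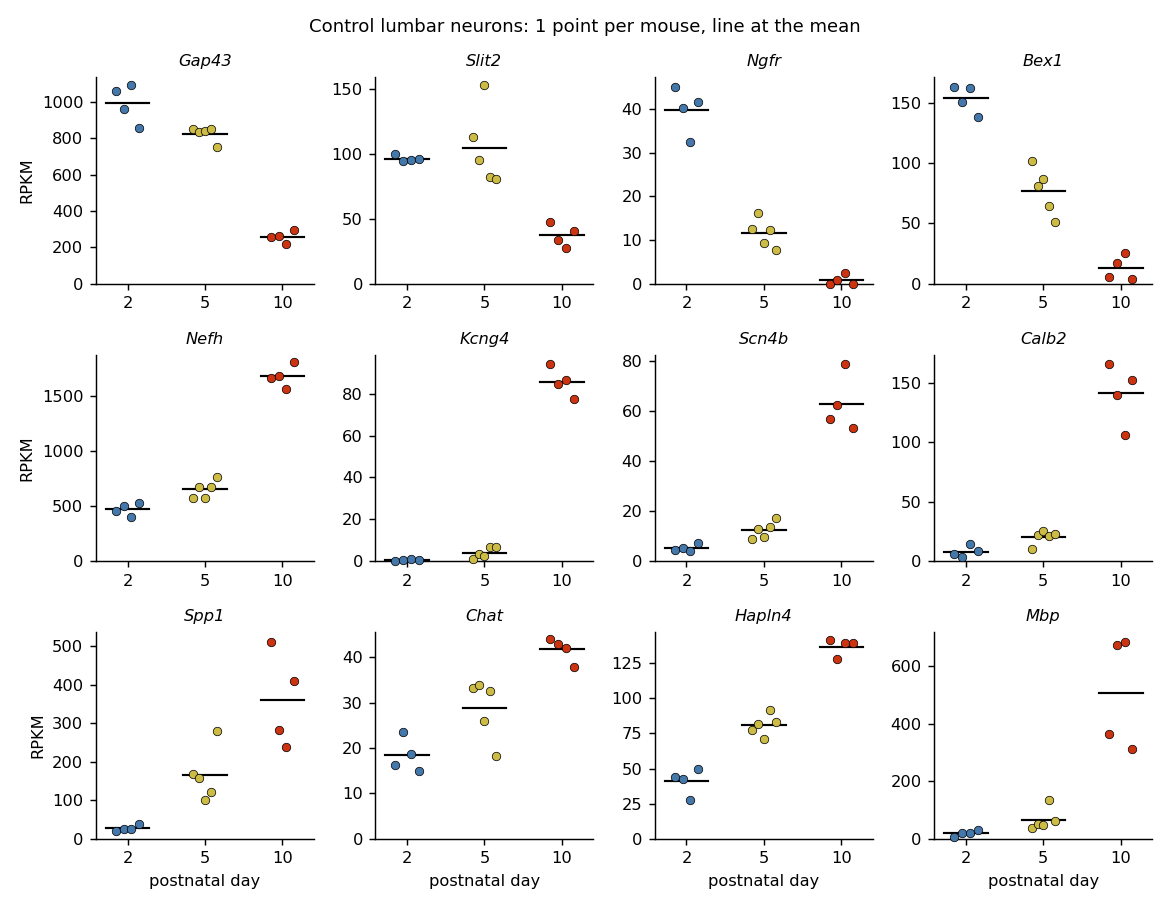
Each panel plots the RPKM of 1 gene, with 1 point per control mouse, the postnatal day on the x axis and a line at the mean of each age; axes start at 0. Gap43, Slit2, Ngfr and Bex1 are lowest at day 10, and in the other 8 panels every day 10 mouse is above every day 2 mouse, with Kcng4 at 77.2 to 93.9 RPKM against 0.363 to 1.30.

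Potassium channels, which set how fast a neuron repolarises and so how fast it can fire, included the largest rise among the named genes. Kcng4, a modifier subunit of delayed rectifier channels and a gene of fast motor neurons, was 0.363, 0.494, 1.30 and 0.411 RPKM at day 2, 1.26, 3.32, 2.35, 6.95 and 6.92 at day 5 and 93.9, 84.7, 86.5 and 77.2 at day 10. Day 5 began where day 2 ended, and day 10 stood far above both. The rise was 5.75 ± 0.36 (limma, adjusted p = 3.28e-07; chr8:119623854-119635680, minus strand). Of 44 potassium and HCN channel genes tested, 13 were higher and 2 lower, with a median change of 0.20, and 9 were higher without mice 240 and 244.

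The rises included Kv1 and Kv3 channels, known from fast-spiking cells. Kcna1, a Kv1 subunit of the juxtaparanode, was 22 to 40.2 RPKM at day 2, 55.2 to 69.9 at day 5 and 115.4 to 132.9 at day 10, with no overlap between ages. Kcnc1, a Kv3 subunit that shortens action potentials, rose by 1.0 ± 0.22, and the call was lost without mice 240 and 244. Kcnj10, an inward rectifier best known from glia, rose by 2.44 ± 0.28. Both falls were of subunits that damp firing: Kcnq3, of the M-current (-1.57 ± 0.28), and Kcnd2, of the A-type current (-1.24 ± 0.18).

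Sodium channel subunits changed places. Scn4b, the beta subunit that speeds recovery from inactivation, was 4.69, 5.41, 4.18 and 7.49 RPKM at day 2, 8.91 to 17.2 at day 5 and 56.8, 62.6, 78.9 and 53.2 at day 10. Scn3b, a beta subunit of early life, ran the other way, at 45.4, 47.6, 56.1 and 42.3 RPKM at day 2, 20.2 to 30.3 at day 5 and 0.563, 1.16, 6.86 and 1.69 at day 10. Neither gene overlapped between any 2 ages. The ratio of Scn4b to Scn3b within a mouse was 0.0745 to 0.177 at day 2 and 11.5 to 100.9 at day 10.

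Among pore-forming subunits, 3 were lower: Scn9a (-2.72 ± 0.34), Scn3a, the embryonic form (-1.90 ± 0.21), and Scn2a1, the form of young axons (-1.52 ± 0.18). Scn8a, the form of mature nodes, was 47.7 ± 4.88 RPKM at day 2 and 75.9 ± 20.9 at day 10 (SD, n = 4 each); it was called higher, and the call was lost without mice 240 and 244. The ratio of Scn8a to Scn2a1 within a mouse was 1.74 to 1.97 at day 2, 2.17 to 3.25 at day 5 and 7.05 to 10.8 at day 10. Over the 28 sodium and calcium channel genes tested, 7 were higher and 8 lower. The rises numbered 4 without mouse 20 or without mouse 247, 3 without mouse 244 and 2 without mice 240 and 244.

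Glycine receptors, through which spinal inhibition reaches motor neurons, exchanged subunits. Glra1, the adult alpha subunit, was 51.1, 48.2, 34.7 and 86.1 RPKM at day 2, 61.5 to 79.7 at day 5 and 105.9, 93.1, 141.7 and 117.6 at day 10. Glra2, the embryonic one, was 49.3, 57.3, 54.6 and 78.3 RPKM at day 2, 51.7 to 70.8 at day 5 and 16.7, 19.9, 9.01 and 19.5 at day 10. The ratio of Glra1 to Glra2 was 0.635 to 1.10 at day 2, 0.869 to 1.54 at day 5 and 4.67 to 15.7 at day 10. Glra2 fell by 1.85 ± 0.23 (limma, adjusted p = 7.65e-05) and Glra1 rose by 1.10 ± 0.22 (adjusted p = 0.00323), a call that was lost without mice 240 and 244. The shared beta subunit Glrb was already at 152.8 to 211.4 RPKM at day 5, against 71.0 to 125.5 at day 2 and 152.7 to 172.5 at day 10. Of 17 GABA-A, glycine and chloride transporter genes tested, 2 were higher and 2 lower, beside 5.67% and 8.75% of all genes. The other fall was of Gabra4, and both rises were lost without mice 240 and 244. Slc12a5, the chloride extruder KCC2, was not called (71.4 ± 4.76 and 89.5 ± 4.35 RPKM, SD, n = 4 each), though its day 2 and day 10 mice did not overlap.

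Glutamate receptor genes mostly fell or were not called: 5 of 16 were lower and 1 was higher, and 3 were lower without mice 240 and 244. Gria3 was the riser, at 18.7, 16.5, 22.9 and 16.1 RPKM at day 2, 25.1 to 39.2 at day 5 and 72.2, 49.4, 51.0 and 57.4 at day 10. Gria2, the subunit that makes AMPA receptors impermeable to calcium, was 41.6 to 53.8 RPKM at day 2 and 26.9 to 34.2 at day 10. The ratio of Gria3 to Gria2 was below 1 in all day 2 and day 5 mice (0.339 to 0.929) and above 1 in all day 10 mice (1.49 to 2.69). Grin2b, the NMDA receptor subunit of young synapses, was 112.5 to 160.5 RPKM at day 2, 63.7 to 87.4 at day 5 and 60.4 to 103.2 at day 10. It was already lower at day 5 (-0.91, limma, adjusted p = 0.0157), and day 5 and day 10 overlapped. Over all genes, 1 was called between day 5 and day 2 without mice 240 and 244. The kainate receptor genes Grik1 and Grik3 changed by -2.10 ± 0.43 and -1.45 ± 0.34, and the call of Grik3 was lost without mice 240 and 244.

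The release machinery of the nerve ending had no common direction, with 11 of 41 genes higher and 10 lower. In the pairs of related genes below, chosen after their values were seen, the form that led at day 2 led by more at day 10. Vamp1 and Vamp2 are vesicle SNAREs, and Vamp1 is the one that prevails at the neuromuscular junction. Vamp1 was 206.1 to 296.7 RPKM at day 2, 277.9 to 317.6 at day 5 and 423.9 to 566.5 at day 10, while Vamp2 was 119.8 to 170.7, 73.5 to 124.8 and 65.2 to 107.2. The calcium sensor Syt2, also the form of the mature neuromuscular junction, rose by 0.78 ± 0.14, and Syt1 fell from 34.6 to 59.9 RPKM at day 2 through 10.0 to 24.1 at day 5 to 5.98 to 13.5 at day 10.

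The membrane SNARE Stx1a fell from 52.9, 60.6, 60.1 and 27.5 RPKM to 5.02, 9.51, 5.98 and 2.91, a change of -2.93 ± 0.29 (limma, adjusted p = 1.64e-05). Among the complexins, which clamp the fusion machinery, Cplx1 rose by 0.40 ± 0.10 and Cplx2 fell by 1.66 ± 0.19. Within a mouse, Cplx1 was 18.7 to 20.7 times Cplx2 at day 2 and 76.2 to 112.6 times at day 10. Every day 10 mouse was above every day 2 mouse in the ratios of Vamp1 to Vamp2, Syt2 to Syt1 and Cplx1 to Cplx2. These ratios do not change when all RPKM values of a library are multiplied by a common factor. Scaling to a common distribution can change them and was not applied to them. The calls of Vamp2 and Cplx1 were lost without mice 240 and 244. The count of falls in the list was 6 without mouse 20, and without mice 240 and 244 there were 7 rises and 6 falls.

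**Figure D3:**
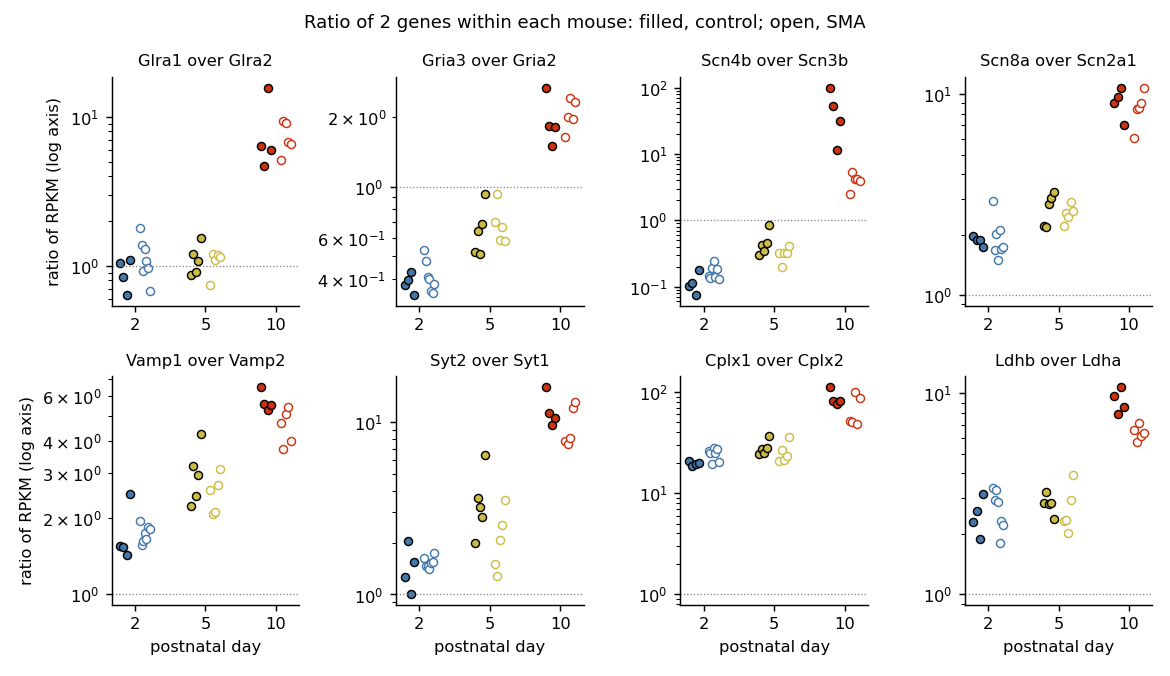
Each panel gives the ratio of RPKM of 2 related genes within each mouse on a log axis, with the postnatal day on the x axis; filled points are control mice, open points are SMA mice, and the dotted line is a ratio of 1. In all 8 panels every control mouse at day 10 is above every control mouse at day 2, as in Glra1 over Glra2 with 4.67 to 15.7 against 0.635 to 1.10. The pairs were chosen after their values were seen, so this separation is a description and not a test.

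Genes of the extracellular matrix around neurons moved both ways. Of 21 genes of the perineuronal net and its surroundings, 6 were higher and 5 lower. Hapln4, a link protein that ties hyaluronan to proteoglycans, was 44.1, 42.3, 27.9 and 49.9 RPKM at day 2, 77.4, 81.9, 71.4, 91.5 and 83.0 at day 5 and 141.5, 127.7, 139.1 and 139.2 at day 10, rising in 2 separate steps. Acan, aggrecan, the defining proteoglycan of the net, was lower in level, at 1.31 to 2.69 RPKM at day 2 and 6.41 to 9.67 at day 10, without overlap. Bcan, brevican, rose by 0.85 ± 0.19. Vcan, the proteoglycan of immature matrix, the glycoprotein gene Reln, and Nptx1, Nptx2 and Nptxr, the neuronal pentraxins and their receptor that gather AMPA receptors, were the 5 falls. The call of Vcan was lost on leaving out 5 of the 13 mice, 1 at a time, under quantile scaling and without mice 240 and 244, and that of Nptx2 without mouse 20 or mouse 244. Reln went from 8.95 to 12.1 RPKM to 1.93 to 4.12. Rises numbered 4 without mouse 252 or without mouse 253, and falls 3 without mouse 20 or without mouse 244; both were 4 and 3 without mice 240 and 244.

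At the axon initial segment and the node of Ranvier, where spikes start and are renewed, 5 of 17 genes were higher and 1 lower, and 3 were higher without mice 240 and 244. Adam22 and Lgi3, partners that anchor Kv1 channels, rose by 1.70 ± 0.34 and 1.04 ± 0.14. The cell adhesion molecule Nfasc rose from 19.3 to 21.8 RPKM to 32.2 to 43.7, and the cytoskeletal adducin Add2 by 1.14 ± 0.25, a call lost without mice 240 and 244. The remaining rise, of the spectrin gene Sptbn4, did not hold when 11 of the 13 mice were left out in turn, and the fall, of the contactin gene Cntn1, was lost on leaving out 6 of them, under quantile scaling and under median centring.

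Calcium-binding proteins moved in both directions, with 5 of 26 higher and 6 lower. Calb2, calretinin, which buffers calcium, was 5.95, 3.24, 14.2 and 8.63 RPKM at day 2, 10.4 to 25.3 at day 5 and 165.4, 139.9, 105.8 and 152.5 at day 10. Its rise was 4.11 ± 0.34 (limma, adjusted p = 4.59e-06; chr8:110137502-110168210, minus strand). The related Necab3 rose from 25.9 to 40.8 RPKM to 100.3 to 119.9 and Necab2 fell from 26.7 to 37.4 to 2.52 to 13.8. The sodium-calcium exchanger gene Slc8a2 fell by 1.53 ± 0.27. Rises numbered 3 without mouse 244 or without mouse 247 and 2 without mice 240 and 244.

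Targets of thyroid hormone and of glucocorticoid, which act on the developing nervous system, were also measured. Among 10 genes tied to thyroid hormone, 4 were higher and 2 lower, with a median change of 0.46. Klf9, a transcription factor induced by thyroid hormone and glucocorticoid, was 2.09, 4.34, 5.40 and 5.91 RPKM at day 2, 5.62 to 10.8 at day 5 and 15.04, 19.01, 31.2 and 18.3 at day 10. Hr, a corepressor that is a direct thyroid hormone target, was at or under 0.315 RPKM at day 2 and at 1.41 to 3.39 at day 10. Rxra, a partner of thyroid and retinoid receptors, was 2.92 to 4.92 and 6.28 to 10.1 RPKM, and its call was lost on leaving out 8 of the 13 mice, 1 at a time and without mice 240 and 244. The hormone receptor genes Thra and Thrb were not called. The rises numbered 2 without mouse 20, mouse 244, mouse 254, or mice 240 and 244.

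Of 21 glucocorticoid and clock genes, 3 were higher and 1 lower, with 17 above 0 in their change and a median of 0.58; 5 were called higher after quantile scaling and 6 after median centring. Tsc22d3, the glucocorticoid-induced leucine zipper, was 78.0, 118.8, 105.0 and 134.4 RPKM at day 2, 119.6 to 158.7 at day 5 and 284.4, 300.7, 270.6 and 288.5 at day 10. It had no overlap between day 10 and the younger mice and rose by 1.41 ± 0.15. Bhlhe40 and Nr1d2, both clock regulators, rose by 1.47 ± 0.32 and 0.93 ± 0.24, and both calls were lost without mice 240 and 244, as Tsc22d3's was not. Fkbp5, another glucocorticoid target, was not called between day 10 and day 2 (limma, adjusted p = 0.252).

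Among metabolic genes, lactate dehydrogenase shifted further to the subunit that already led at day 2. Ldha, the muscle form, was 227.5 to 323.4 RPKM at day 2, 235.6 to 293.9 at day 5 and 106.0 to 119.4 at day 10. Ldhb, the heart form, was 612.2 to 754.2 at day 2 and 938.7 to 1186 at day 10. The ratio of Ldhb to Ldha within a mouse was 1.89 to 3.14 at day 2, 2.38 to 3.22 at day 5 and 7.86 to 10.8 at day 10. Of 24 genes of glycolysis and lactate handling, 6 were higher and 4 lower, among the rises Eno2, the neuronal enolase (0.59 ± 0.09), and among the falls Hk1, the brain hexokinase (-0.47 ± 0.15, limma, adjusted p = 0.0444), a call that was lost on leaving out 9 of the 13 mice, 1 at a time, under both scalings and without mice 240 and 244. The count of rises was 3 without mouse 20, mouse 244 or mouse 254, and that of falls was 2 without mouse 244 or mice 240 and 244.

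Nuclear genes of oxidative phosphorylation, the source of most neuronal ATP, gave 1 rise and 9 falls of 74, with a median of -0.13 that lay close to the -0.11 of all genes. Falls numbered 5 without mouse 240, 6 without mouse 244 or mouse 252, 4 with the SMA mice in the fit, and 3 under median centring or without mice 240 and 244. Genes of cytosolic ribosomal proteins gave 19 falls and no rise of 76, with a median of -0.45, and 65 of the 76 were below 0 in their change. Rps19, for example, was 146.0 to 205.1 RPKM at day 2 and 61.8 to 129.4 at day 10. The falls numbered 9 without mouse 20, 8 without mouse 244, 11 without mouse 247, 12 without mouse 254, 9 under median centring and 7 without mice 240 and 244. Ribosomal protein genes have many near-identical pseudogenes, so their levels are uncertain.

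Counts in 6 other lists were small and are to be read beside the 5.67% higher and 8.75% lower of all genes. Sterol synthesis had 2 rises and 1 fall of 21, p53 targets 1 and 3 of 22, immediate early genes 1 and 1 of 16, imprinted growth genes 2 and 4 of 26, and genes of antigen presentation and interferon 0 and 1 of 11, the fall being B2m, whose call was lost on leaving out 7 of the 13 mice, 1 at a time. Lysosomal genes had 4 rises and 2 falls of 31, led by Psap, the precursor of the saposins, at 19.1 to 33.2 RPKM and then 53.9 to 70.4. Under every alternative tried, the counts of these 6 lists moved by at most 2 genes. Cell cycle genes had 7 falls and no rise of 25 (2 falls without mice 240 and 244, 4 without mouse 247). Among them was Mcm6, of the replicative helicase, at 2.48 to 6.04 RPKM at day 2 and 0 to 1.09 at day 10. Of the 17 developmental transcription factors tested, 4 rose, among them Nfia at 180.9 to 296.4 and then 311.1 to 440.4 RPKM, and 4 fell; rises numbered 2 without mouse 20, mouse 244 or mice 240 and 244, and falls 1 without mouse 20 or mouse 252, 2 without mouse 240 or mouse 254 and none without mice 240 and 244.

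**Figure D4:**
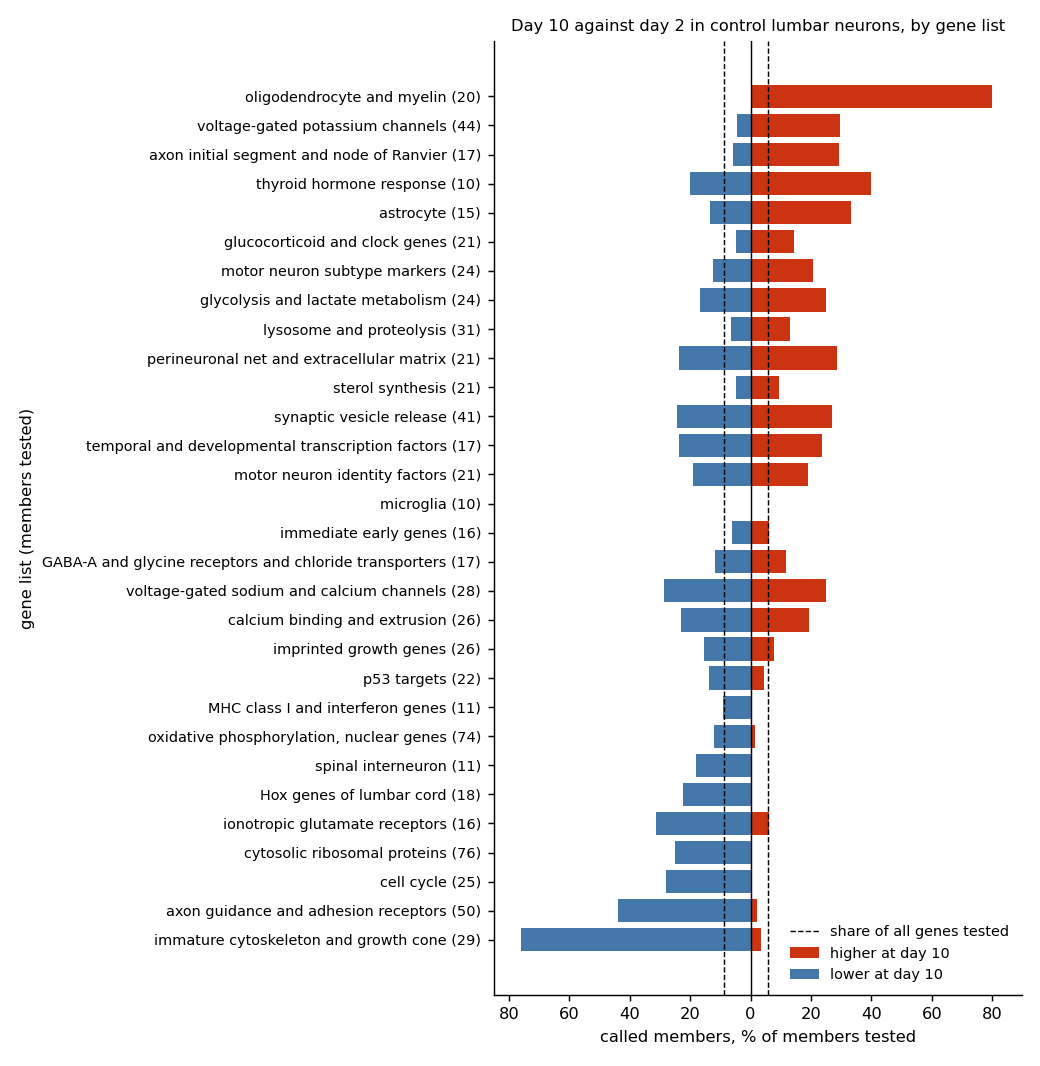
Bars give, for each gene list with at least 10 members tested, the percentage of its members called higher (right, red) or lower (left, blue) at day 10 than at day 2, with the number tested in parentheses; dashed lines mark the shares over all genes, 5.67% higher and 8.75% lower. The growth cone list (22 of 29 lower) and the myelin list (16 of 20 higher) reach farthest to each side.

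Markers of other cells moved with age too. Of 20 oligodendrocyte and myelin genes tested, 16 were higher at day 10 and none lower, with a median change of 2.64. The summed level of the 24 genes in the table was 54.4 to 115.0 RPKM at day 2, 115.8 to 291.3 at day 5 and 738.5 to 1485 at day 10. Mbp, myelin basic protein, was 5.603, 21.0, 19.9 and 29.0 RPKM at day 2, 38.6, 50.5, 48.4, 134.5 and 61.9 at day 5 and 363.0, 674.1, 684.5 and 313.0 at day 10. The ages did not overlap, and mouse 71 was the high one at day 5. Mog, a late marker of myelinating oligodendrocytes, was at or under 0.632 RPKM in all day 2 and day 5 mice and at 16.4 to 33.9 at day 10. It passed the filter on low values only through the day 10 mice. Mobp, Mag and Cldn11 rose by 4.38 ± 0.65, 4.27 ± 0.53 and 4.23 ± 0.59.

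Pmp22, a myelin protein gene of Schwann cells that some neurons also express, was 11 to 20.7 RPKM at day 2, 42.0 to 126.4 at day 5 and 119.9 to 373.6 at day 10. The summed level of the 7 Schwann cell genes was mostly that of Pmp22, at 15.5 to 23.2 RPKM at day 2 and 121.7 to 375.2 at day 10. Of these 7 genes, 3 were at 0 in all 13 mice. Of 15 astrocyte genes, 5 were higher and 2 lower (3 and 1 without mice 240 and 244, and 1 fall without any of 9 of the 13 mice), and their summed level was 825.9 to 1141 RPKM at day 2, 887.7 to 1020 at day 5 and 1047 to 1204 at day 10. S100b rose from 310.3 to 413.9 RPKM to 773.8 to 975.3 and Fabp7, of radial glia and young astrocytes, fell from 313.8 to 565.9 to 42.9 to 122.3. No microglial gene of 10 tested was called by limma (0 at an unadjusted p under 0.05), and day 2 and day 10 mice overlapped in all 10. Genes of vessels and blood gave 1 fall of 9. The part of RNA from cells next to the captured neurons in the age changes was not tested. Of the interneuron genes, 2 of 11 fell, Npy and Tac1 (the latter not without any of 8 of the 13 mice); their summed level, which is mostly that of somatostatin (Sst), was 2166 to 8856 RPKM at day 2 and 422.5 to 2306 at day 10.

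The largest changes among all genes were those of 12 rises and 12 falls, chosen by size among genes with no overlap between day 2 and day 10 and a mean of at least 10 RPKM at the higher age. Kcng4, Calb2 and 6 myelin genes were among the rises. Plxdc1, a receptor gene known from tumour vessels, was 0.354, 0.551, 0.738 and 1.43 RPKM at day 2, 3.67 to 12.3 at day 5 and 48.0, 39.6, 40.9 and 39.4 at day 10, with no overlap between ages. Wnk4, a kinase that regulates ion cotransporters, was 0.224 to 7.89 RPKM at day 2, 0.195 to 9.82 at day 5 and 57.2 to 67.2 at day 10. Arhgap9, a gene of a GTPase-activating protein, was listed at 0 in all day 2 mice, at 0 to 2.93 RPKM at day 5 and at 12.1, 21.3, 10.8 and 27.1 at day 10. The table's row Trf_ann1, transferrin, an iron carrier made by oligodendrocytes, was 0 to 6.89 RPKM and then 25.9 to 84.7.

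Ngfr, the p75 neurotrophin receptor of developing and injured motor neurons, stood out among the falls. It was 45.1, 40.3, 32.4 and 41.6 RPKM at day 2, 12.6, 16.3, 9.41, 12.2 and 7.75 at day 5 and 0, 0.863, 2.44 and 0 at day 10. The 3 ages did not overlap, and the fall was 4.67 ± 0.35 (limma, adjusted p = 1.96e-06; chr11:95568818-95587735, minus strand). Bex1, a brain-expressed X-linked gene that takes part in p75 signalling, was 163.1, 150.7, 161.9 and 137.9 RPKM at day 2, 51.3 to 101.7 at day 5 and 5.82, 17.4, 25.6 and 4.31 at day 10. Rsph9, a protein of the radial spokes of motile cilia, was 11.4 to 23.6 RPKM at day 2 and at 0 in 3 of 4 day 10 mice, with 0.205 in the other.

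The remaining falls were of S100a11, a calcium-binding protein, Ptgds, prostaglandin D synthase, Ifitm2, an interferon-induced membrane protein, Dkkl1, a secreted protein, the predicted gene Gm7271 and the transcript D930028M14Rik, beside Crabp2, Vim and Scn3b. Their changes ran from -5.97 for Crabp2 to -3.74 for Bex1, and the SE was largest for Crabp2 at 1.2. D930028M14Rik was 10.8 to 26.0 RPKM at day 5, overlapping its range at day 2 of 11.4 to 33.6, and at 0 to 1.75 at day 10. All 12 falls had day 5 means between those of day 2 and day 10.

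Day 5 lay closer to day 2 than to day 10 in the number of genes that differed. Between day 5 and day 2, 87 genes were higher (0.615% of those tested) and 143 lower (1.01%). Between day 10 and day 5, 745 were higher (5.27%) and 883 lower (6.24%). The day 5 mice enter both comparisons, and the interval from day 5 to day 10 is the longer one. By their Xist and Y-linked transcripts the day 5 mice were 4 females and 1 male. Of the growth cone list, 4 of 29 were lower at day 5 than at day 2 and 12 were lower at day 10 than at day 5; of the guidance list, 1 of 50 and 17 of 50; of the potassium channels, 3 and 11 of 44 were higher; and of the myelin genes, 1 and 17 of 20 were higher. The count between day 5 and day 2 rested on few mice: it was 1 gene without mice 240 and 244.

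Genes called higher by day 5 included Spp1 (2.47, limma, adjusted p = 0.00124), Plxdc1 (2.01), Pmp22 (1.97), Mbp (1.82), Kcng4 (1.52), Scn4b (1.05), Kcna1 (1.04), Hapln4 (0.99), Glrb (0.91), Slc5a7 (0.88) and the neurofilaments Nefl (0.46), Nefm (0.36) and Nefh (0.48). Those called lower included Ngfr (-1.72), Syt1 (-1.25) and Grin2b. Ribosomal protein genes had 12 of 76 lower at day 5 and none higher. From day 5 to day 10 they had 4 higher and 3 lower. The light neurofilament Nefl changed by 0.46 to day 5 and by 0.03 from there to day 10.

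A straight line in days from day 2 to day 10 was compared with the day 5 values. Day 5 was above the line for 93 genes (0.658%) and below it for 132 (0.933%), and 10 genes in all were called without mice 240 and 244. Npy2r, a receptor for neuropeptide Y, was 5.5 to 8.25 RPKM at day 2, 10.2 to 21.1 at day 5 and 1.37 to 3.25 at day 10, so day 5 was the peak with no overlap. Mog was below the line (-1.68), being near 0 until day 5. Mt1, a metallothionein induced by glucocorticoid and metals, was 167.7 to 198.4 RPKM at day 2, 75.7 to 108.5 at day 5 and 164.3 to 375.9 at day 10. Both Npy2r and Mt1 lost their calls without mice 240 and 244.

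Among the other genes that the naming rule took for day 5, Gm26154, a predicted small RNA gene, was 13.1 to 64.7 RPKM at day 5, 1.38 to 8.03 at day 2 and 0 at day 10. The rows Gm24601 and n-R5-8s1 were lower at day 5 (30.5 to 72.6 and 78.2 to 126.7 RPKM) than at either other age (83.2 to 389.5 and 154.6 to 624.9); the second is named for 5.8S ribosomal RNA. Ribosomal RNAs carry no polyA tail, and what their reads in these libraries stand for was not tested. Gm23063, Gm7964 and Rnf25, a ubiquitin ligase, were highest at day 5, and Gm12596 and Clasrp, a splicing factor, lowest. The calls of Gm23063, Gm7964, Rnf25 and Clasrp were lost on leaving out 2, 5, 8 and 3 of the 13 mice, 1 at a time.

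The same contrast was computed in 17 SMA mice of the lumbar population (7 at day 2, 5 at day 5, 5 at day 10), none of which is among the controls. There 1160 genes were higher at day 10 (7.66% of 15153 tested) and 1377 lower (9.09%). Of the 2040 genes called in controls, 2030 were tested in SMA mice, 1905 of these had the same direction, and 1203 were called in the same direction, which is 58.97% of the control list and 47.42% of the SMA list. Called in opposite directions were 3 genes: Cdkn1a, a cell cycle inhibitor and p53 target, Pomc, a peptide hormone precursor, and Ndufa11, of respiratory complex I. All 3 control calls were lost without mice 240 and 244, those of Pomc and Ndufa11 also on leaving out 5 and 7 of the 13 mice, 1 at a time, and that of Ndufa11 under both scalings. Cdkn1a was 19.6 ± 2.84 RPKM at day 2 and 6.90 ± 5.73 at day 10 in controls (SD, n = 4 each), and rose by 1.56 in SMA mice. The test of the difference in age change between genotypes called 0 of 16382 genes by limma (0%), with 1378 at an unadjusted p under 0.05, so none of these differences passed.

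Several hallmarks of the control course were also seen in the SMA mice, and their values stand beside those of the controls. Gap43 was 1090 ± 258 RPKM (SD, n = 7) at day 2 and 418.6 ± 80.5 (SD, n = 5) at day 10, Kcng4 0.486 ± 0.526 and 71.2 ± 8.52, and Ngfr 47.8 ± 8.08 and 1.91 ± 0.916. Nefh rose to 1245 ± 138 RPKM (SD, n = 5), against 1674 ± 98.8 (SD, n = 4) in controls. The ratio of Scn4b to Scn3b reached 2.50 to 5.37 at day 10 in SMA mice against 11.5 to 100.9 in controls. Of the growth cone list, 0 and 20 of 29 were called higher and lower in SMA mice, and of the myelin list 19 and 0 of 23. Lists differed in the counts called in SMA mice and in controls: oxidative phosphorylation had 17 higher and 0 lower of 75 in SMA mice, p53 targets 8 and 1 of 27, and sterol synthesis 2 and 9 of 21, against 1 and 9 of 74, 1 and 3 of 22, and 2 and 1 of 21 in controls. The difference between genotypes was tested gene by gene and not for the lists.

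To ask which changes differed from those of other motor neurons, the control lumbar samples were fitted together with control hypoglossal (12 mice), facial (13) and ocular (12) motor neurons, with the animal as a block because the populations come from the same mice. Few genes differed in their change from day 2 to day 10. Against hypoglossal neurons the lumbar change was higher for 21 genes (0.119% of 17691) and lower for 34 (0.192%), against facial neurons for 13 (0.0735%) and 26 (0.147%), and against ocular neurons for 19 (0.107%) and 32 (0.181%). Falls of Gap43 were shared: its day 10 values were 291.0 to 474.0 RPKM in hypoglossal, 412.8 to 661.3 in facial and 119.0 to 207.7 in ocular neurons, after 630.5 to 1472 at day 2, and no difference was called. Kcng4 reached 72.1 to 88.6 RPKM in ocular neurons, like the lumbar 77.2 to 93.9, and 4.37 to 14.95 in hypoglossal neurons, where the lumbar rise was larger by 2.67 ± 0.54 (limma, adjusted p = 0.00928).

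Arhgap9 and Bex1 changed more in lumbar neurons than in all 3 other populations. Arhgap9 was at 0 in every day 2 mouse of the 4 populations; at day 10 it was 10.8 to 27.1 RPKM in lumbar neurons and at most 1.44 in the others, and the differences in change were 3.88 ± 0.46, 3.45 ± 0.45 and 4.04 ± 0.46 against hypoglossal, facial and ocular neurons (limma, adjusted p = 1.52e-06, 8.83e-06 and 5.39e-07); the facial one was not called with a pseudocount of 0.1. Bex1 began at 130.9 to 229.0 RPKM in the other populations, close to the lumbar values, and stood at 52.9 to 117.0 at day 10 against 4.31 to 25.6 in lumbar neurons. The differences were -3.02, -2.55 and -2.11. Ngfr kept 3.47 to 29.4 RPKM at day 10 in hypoglossal and facial neurons, against 0 to 2.44 in lumbar ones; the lumbar fall was larger by 2.75 ± 0.50 and 2.77 ± 0.48 there, and its difference from ocular neurons was not called (adjusted p = 0.317).

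**Figure D5:**
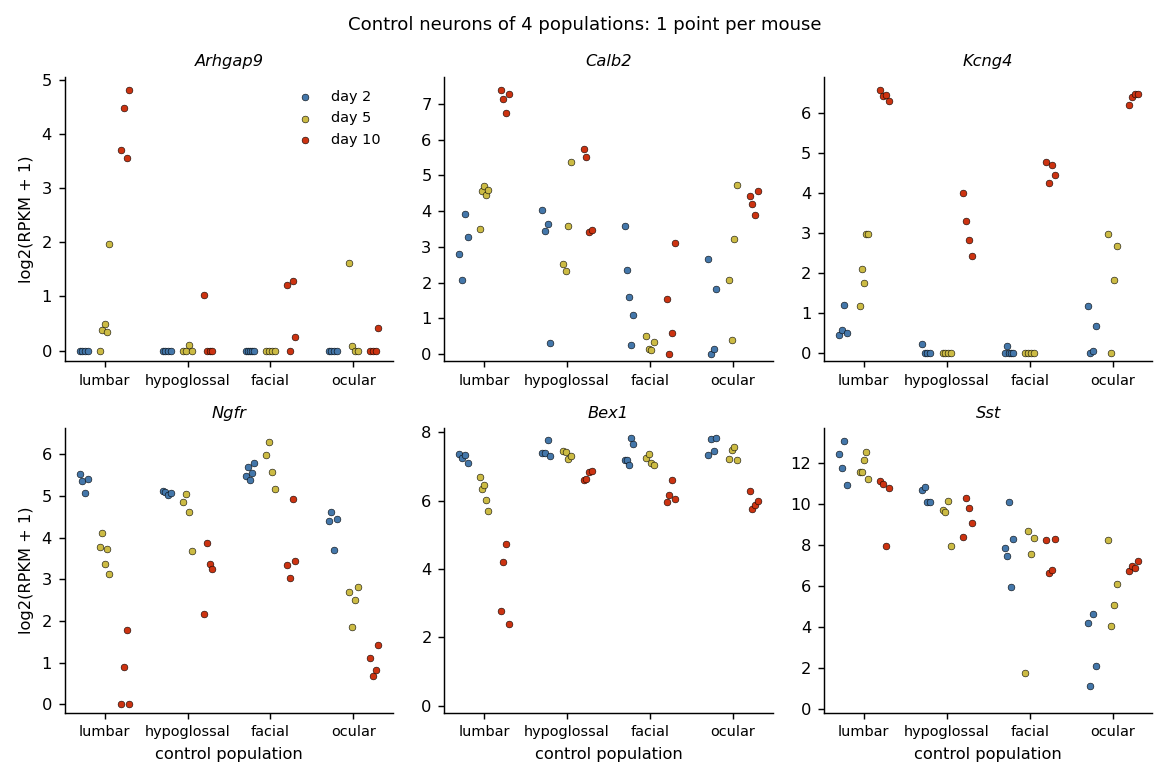
Each panel plots log2(RPKM + 1) of 1 gene in control mice of 4 motor neuron populations, 1 point per mouse, with the colour for the postnatal day. Arhgap9 leaves 0 at day 10 mainly in lumbar neurons, Bex1 and Ngfr end lower there than in hypoglossal and facial neurons, Kcng4 rises in all 4 populations, and Sst is lower at day 10 than at day 2 on average in lumbar neurons and higher in ocular ones.

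Other differences were tied to 1 population. Calb2 rose in lumbar neurons and was 0 to 7.68 RPKM in facial neurons at day 10, a difference of 4.56 ± 1.04 (adjusted p = 0.036) that was lost without 6 of the 8 lumbar mice taken 1 at a time. Glra2, which fell in lumbar neurons, had a change of -0.02 in facial ones (difference -1.84 ± 0.41, adjusted p = 0.0283). Gal, the neuropeptide galanin, was 31.6 to 161.3 RPKM at day 2 and 5.70 to 17.8 at day 10 in lumbar neurons and 19.1 to 48.4 and then 24 to 223.9 in ocular ones, a difference of -4.46 ± 0.55 (limma, adjusted p = 1.71e-06). Sst differed from ocular neurons by -5.80 ± 1.31 (adjusted p = 0.0306), and that call was lost without 7 of the 8 lumbar mice. Crip2, a LIM domain protein, rose in lumbar neurons from 6.08 to 19.3 RPKM to 37.6 to 71.9 and ended at 3.46 to 18.4 in ocular ones, from 15.6 to 28.5.

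The remaining genes named for a population difference had day 10 levels of at most 20.6 RPKM in lumbar neurons apart from Gja1. Most of them changed in opposite directions in the 2 populations compared. Itgb5 (an integrin) and C1ql2 (a synaptic organiser) changed by 2.06 and 1.61 in lumbar and by -1.47 and -1.89 in hypoglossal neurons. Efcab10 and Pthlh (parathyroid hormone-like hormone) changed by -3.26 and -3.16 in lumbar and by 1.80 and 0.50 in hypoglossal neurons, and none of these 4 hypoglossal changes was called. Gja1, the connexin of astrocytes, was not called in lumbar neurons (0.97) and fell in facial ones (-1.40). Tmem132c fell in lumbar neurons (-2.03) and was not called in facial ones (0.79), while Rem2, a GTPase that restrains calcium channels, fell in lumbar neurons (-1.28) and rose in facial ones (1.51). Msl3, a chromatin factor, and Clic1, a chloride channel protein, were not called in lumbar neurons (0.72 and -1.68); in ocular neurons Msl3 fell (-1.63) and Clic1 rose (1.96). For the differences between populations, Tmem132c kept its call without each of the 8 mice, Rem2 lost it without mouse 247, Efcab10 without mouse 247 or mouse 254, and the others lost it in 3 to 7 of 8 such fits.

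Smn1, the gene that is disrupted in the SMA mice, was present in every control mouse and was not called between ages. It was 24.6, 16.9, 31.8 and 20.4 RPKM at day 2, 43.8, 15.2, 19.6, 17.5 and 18.2 at day 5 and 16.5, 11, 39.9 and 18.5 at day 10. The 3 ages overlapped, and the change from day 2 to day 10 was -0.24 ± 0.36 (limma, adjusted p = 0.733). A separate row of the table, SMN2, has the human gene's name. It was 120.8 to 173.1 RPKM at day 2, 114.3 to 206.1 at day 5 and 58.4 to 133.3 at day 10 and was not called (limma, adjusted p = 0.112). How reads were shared between the mouse gene, the human gene and the transgene without exon 7 is not given in the sources used here.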

How the data were processed

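The authors deposited one table of RPKM values, reads per kilobase of gene and per sequencing depth, with 39410 rows (8942 of them at 0 in every library) and 168 libraries. The submitters' processing notes name STAR 2.4.1c and the builds mm10 and hg19; the counter, the annotation and the use of strand are not given in the sources used here, so antisense, overlapping and near-identical genes may share reads. Depth was estimated from the steps of low values: 67.3 to 73.5% of values per library came out as whole reads within 0.2%, too few for a count test. The number of reads limits the precision of low genes.

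Libraries were grouped by their labels, and repeat libraries of a mouse and population were averaged. Genes at 1 RPKM or more in at least 4 of the mice compared were tested on log2(RPKM + 1), a pseudocount of 1 that understates changes of low genes, with limma 3.58.1 (R 4.3.3; eBayes with trend; Benjamini-Hochberg adjustment over all genes tested, threshold 0.05). The fits were tested on simulated data. One fit held the 3 lumbar control ages. The SMA lumbar groups entered a joint fit for the comparison of age changes. Comparisons with hypoglossal, facial and ocular neurons kept the animal as a block (consensus correlation 0.0388), since one mouse gave several populations; the ages share no animal. Ages are separate mice, so p-values measure the spread between mice.

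Gene lists and genes were chosen with earlier results of these data known. Genes were named by a rule: the 12 largest rises and 12 largest falls past the threshold with mice of day 2 and day 10 not overlapping and a mean of at least 10 RPKM at the higher age, up to 5 genes each way for day 5 off the straight line, up to 3 each way for each comparison with another population, Smn1, and members of the lists. Some genes that meet this rule are not reported here. Other named genes, among them the genes with matched partners and those in the closing observations, were chosen after their values were seen. Positions are from GENCODE M21 (GRCm38), in which 89.7% of rows had a match by name. Alternatives were another pseudocount, filter, scaling, covariate, model or set of mice; leaving out day 2 mice 240 and 244 together was chosen after seeing the data.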

Additional observations from a re-analysis of the deposited data

Results flagged for a closer look

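In 43 of 504 groups, each a gene at 1 age, 1 mouse lay far from the others of its age by Dixon's gap test; chance alone flags about 1 in 20 groups. The values below are the RPKM of that mouse.

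At day 2, mouse 28 was highest in Slc5a7 (127.1), Slc32a1 (16.3) and Nr1d2 (7.16), mouse 20 in Rps19 (205.1) and Gm12596 (14.9), and mouse 244 in Kcng4 (1.30). Mouse 240 was highest in Lhx4 (7.06), Lgi3 (108 RPKM) and Ndufa11 (466.2) and lowest in Gm24601 (83.2).

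At day 5, mouse 71 was highest in the myelin genes Mbp (134.5), Mobp (19.7) and Mag (6.17), in Tac1 (82.9), a peptide gene, and in the kinase gene Wnk4 (9.82). Mouse 29 was highest in Slc12a5 (169.6), Bhlhe40 (11.9), Smn1 (43.8) and Scg2 (195.7) and lowest in Sema7a (25.3), Ina (334.6) and Fkbp5 (0.551). Mouse 75 was lowest in Gap43 (750.9), Marcksl1 (122.6) and Scn3b (20.2) and highest in Glra1 (79.7), Gria3 (39.2) and Arhgap9 (2.93). Mouse 34 was highest in Oxt (1.0) and lowest in Tsc22d3 (119.6).

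At day 10, mouse 253 was highest in Dcx (2.93), Kcnc1 (77.6), Slc8a2 (0.0828), Npy (20.4), Cdkn1a (15.4) and Scg2 (78.8) and lowest in Nefl (4849). Mouse 252 was lowest in Vim (1.81) and was the mouse with a value above 0 in Hoxc11 (0.294), Rsph9 (0.205) and Gm7271 (1.91). Mouse 247 was highest in Plxdc1 (48.0) and Gm7964 (5.73).

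For other genes the change from day 2 to day 10 in lumbar neurons differed from that in a brainstem population by limma's test of the difference. Against hypoglossal neurons the differences were 3.88 for Arhgap9, 3.54 for Itgb5, 3.50 for C1ql2, -5.06 for Efcab10, -3.67 for Pthlh and -3.02 for Bex1. Against facial neurons they were 4.56 for Calb2, 3.45 for Arhgap9, 2.37 for Gja1, -2.82 for Tmem132c, -2.79 for Rem2 and -2.77 for Ngfr. Against ocular neurons they were 4.04 for Arhgap9, 3.40 for Crip2, 2.35 for Msl3, -5.80 for Sst, -4.46 for Gal and -3.64 for Clic1.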

How the results depend on the processing

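The 2040 genes called between day 10 and day 2 kept their direction in every alternative in which they could be retested. Those called again in the same direction numbered 1617 with no filter, 1414 without mouse 20 and 992 without mice 240 and 244. Other pseudocounts, filters, scalings and models gave 1717 to 2048 calls, and leaving out 1 mouse gave 1450 to 2095. Without mice 240 and 244 there were 1072. Of 137 named genes that were called and could be retested without those mice, 113 were called again. The middle age was less stable. Day 5 against day 2 gave 230 calls, 136 with no filter, 39 to 312 in leave-one-out fits and 1 without mice 240 and 244. The 225 genes off the straight line became 108 with no filter, 120 with sex as a covariate, 73 to 266 in leave-one-out fits and 10 without those mice. Day 10 against day 5 gave 1166 to 1685 calls with 1 mouse left out. The difference between SMA and control changes was called for 1 gene with the filter at 5 RPKM and for 0 to 3 with 1 mouse left out.

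For the comparisons with other populations the replicate block is the animal. Without the replicate block the calls went from 55 to 42 for hypoglossal, from 39 to 35 for facial and from 51 to 44 for ocular neurons, and C1ql2 lost its call at 3.51. The ages share no animal, so no paired analysis of the ages was possible. With a pseudocount of 0.1 the hypoglossal and facial counts were 35 and 24. With 1 mouse left out they were 23 to 41 and 12 to 37, and the ocular count was 31 to 92. Among genes not called, the sign turned for Smn1 (-0.57 to 0.0143 with 1 mouse left out, the latter mouse 252), Clasrp (-0.0286 to 0.12, the former without mouse 28), Slc32a1 (-0.97 to 0.25, above 0 without mouse 28, 247 or 254, and 0.17 with day as a number), Msl3 (-0.00344 without mice 240 and 244) and Hcrt (0.0737 without them). The causes were not tested. Recovered depth was lowest at day 10, and changes of genes near 1 RPKM are the least precise.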

Other observations

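Some gene groups outside the lists above also changed between day 2 and day 10. They were chosen after their values were seen, and their levels are described here with the tests of the same fit over all genes.

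Genes of 4 small heat shock proteins and of the cochaperone Bag3, which together hold unfolded proteins and pass them to autophagy, were higher at day 10. Bag3 was 3.15, 4.70, 4.34 and 3.57 RPKM in the day 2 mice, 3.59 to 17.2 at day 5 and 74.3, 59.1, 51.2 and 64.5 in the day 10 mice, a rise of 3.68 ± 0.32 (limma, adjusted p = 6.72e-06). Every day 10 mouse was above every younger mouse. Hspb8, a partner of Bag3, was 45.4 to 57.0 RPKM at day 2, 74.6 to 101.4 at day 5 and 101.1 to 162.1 at day 10. Hspb6 rose by 2.32 ± 0.21 and Hspb1 by 2.15 ± 0.33 (limma, adjusted p = 9.19e-06 and 0.000528). Hspb1 was 3.70 to 6.66 RPKM at day 2, 3.77 to 7.14 at day 5 and 11.3 to 39.0 at day 10, with mouse 253 the lowest of the day 10 mice. Cryab, the alpha-B crystallin, which myelinating glia also express, rose by 1.95 ± 0.31. These 5 calls held in all 13 fits that left out a mouse and without mice 240 and 244.

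Rbp2, a cellular retinol-binding protein that carries vitamin A inside cells, fell by 3.12 ± 0.40 (limma, adjusted p = 0.000109). It was 92.9 to 137.9 RPKM at day 2, 61.5 to 99.4 at day 5 and 3.13 to 23.9 at day 10.

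Transcripts of 3 further genes of peptides or secretory granules were lower at day 10, while the peptide genes Sst and Hcrt were not called. Ucn, the stress peptide urocortin, was 5.07 to 11.8 RPKM at day 2, 5.83 to 11.9 at day 5 and 0 to 0.542 at day 10, with a change of -2.96 ± 0.30 (limma, adjusted p = 1.68e-05). Cartpt, the precursor of the CART peptide, was 43.8, 128.8, 51.4 and 108.5 RPKM at day 2, 12.1 to 26.9 at day 5 and 10.4 to 36.3 at day 10. Its change from day 2 to day 5 was -1.87, and that from day 2 to day 10 was -1.86 (limma, adjusted p = 0.0232 and 0.00437). Over all genes, 1 was called between day 2 and day 5 without mice 240 and 244. The granin Scg2, a protein of secretory granules, was 102.3 to 240.8, then 123.2 to 195.7, then 40.2 to 78.8 RPKM.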
